A study of Mus musculus with 5 samples.

Results

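The BCL2 family survival genes examined here were Bcl2, Mcl1, Bcl2l1, Bax, Bak1, Bcl2l11, Bid and Bbc3, together with Cflar, which acts upstream of the family. They were chosen by name for their place in the cell death pathway, 9 genes among the 16658 protein-coding genes that had an H3K27ac peak within 10 kb of their span. A locus is the span of a gene in GENCODE M21 (build mm10) with 10 kb added on each side, and the 9 loci held 141 of the 124158 deposited peaks. H3K27ac, the acetylation of lysine 27 on histone H3, marks active promoters and enhancers. It was profiled by CUT&Tag, in which an antibody brings a transposase to the mark and the cut DNA is sequenced. The cells were large intestinal regulatory T (Treg) cells, sorted as CD3+CD4+YFP+ cells from C57BL/6 littermates of 2 weeks of age. The Ctrl group was Foxp3Cre-YFP with 1 floxed and 1 normal Setd2 allele (Setd2 flox/+), and the KO group was Foxp3Cre-YFP with both alleles floxed (Setd2 flox/flox). Setd2 encodes the methyltransferase that deposits H3K36me3 over transcribed genes. Both groups carried the Cre, which is driven by Foxp3 and so acts in cells that express this Treg transcription factor, and Ctrl cells were heterozygous for Setd2 deletion rather than wild type. Each group had 2 libraries, each from 60000 cells pooled from 3 to 5 mice with females and males together, so an n of 2 counts pools and not mice.

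The BCL2 family controls the mitochondrial route of apoptosis. Its anti-apoptotic members hold the effectors BAX and BAK in check, and BH3-only members relieve that block or activate the effectors, after which the outer mitochondrial membrane is permeabilised and caspases are activated. The survival of Treg cells depends on the balance between anti-apoptotic and BH3-only proteins, MCL1 and BIM (the product of Bcl2l11) being the best known pair. CFLAR, or c-FLIP, blocks caspase-8 at death receptors such as FAS, and BID links that route to mitochondria. The comparison asks whether the active chromatin of these genes differed between Setd2-deficient and control Treg cells of young mice.

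The libraries held 2395002 and 3630447 counts in peaks for Ctrl and 3007444 and 4712473 for KO, and the 9 loci took 0.206% to 0.236% of them. Levels are given as CPM, counts scaled to a common library size by the counts in tested peaks and TMM factors. Peaks at the promoters of the 6 Treg and T cell markers summed to 712 to 1002 CPM in a library. The same sum was 13.1 to 24.4 CPM for 4 B cell markers, 6.55 to 22.6 for 5 myeloid markers, 14.0 to 21.1 for 5 epithelial markers and 17.9 to 30.2 for 4 CD8 and NK cell markers. No promoter peak was listed for Ms4a1, Pax5, Lyz2, Csf1r, Itgam, Adgre1, Krt20, Cd8a, Ncr1 or Col1a1. Among the 4 stromal and endothelial markers the sum was 80.5 to 108 CPM, of which Pecam1, a gene that leukocytes also use, gave a mean of 92.3 CPM. The Setd2 locus measured 76.5 and 114 CPM in Ctrl and 57.4 and 81.9 in KO, and its promoter peaks 26.2 and 25.0 CPM in Ctrl and 27.2 and 33.3 in KO. Peak counts do not test whether its floxed exons were deleted. In sorted populations such as these, fewer cells carrying the mark and less of the mark per cell cannot be told apart.

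The promoter sequences of 4 of the genes are shown because they differ in base composition and in how the H3K27ac peaks lie on them. Each runs from 250 bases before to 50 bases after a RefSeq transcription start site (TSS) in GRCm38.p6, the assembly of mm10, and is written 5′ to 3′ on the strand of the gene. Capitals mark matches, on either strand, to the GC box GGGCGG, the CCAAT box CCAAT, the TATA box TATAAA, the ETS core CCGGAA, the FOXO motif GTAAACA or the STAT motif TTCNNNGAA.
Bcl2, chr1:106714241-106714540, minus strand: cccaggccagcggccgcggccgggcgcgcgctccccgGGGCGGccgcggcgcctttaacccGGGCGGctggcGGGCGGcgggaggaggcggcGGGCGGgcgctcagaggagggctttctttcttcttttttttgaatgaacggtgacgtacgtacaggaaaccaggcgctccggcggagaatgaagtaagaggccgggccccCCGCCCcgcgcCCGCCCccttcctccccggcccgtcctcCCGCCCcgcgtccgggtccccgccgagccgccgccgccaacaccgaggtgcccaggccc
Mcl1, chr3:95658471-95658770, plus strand: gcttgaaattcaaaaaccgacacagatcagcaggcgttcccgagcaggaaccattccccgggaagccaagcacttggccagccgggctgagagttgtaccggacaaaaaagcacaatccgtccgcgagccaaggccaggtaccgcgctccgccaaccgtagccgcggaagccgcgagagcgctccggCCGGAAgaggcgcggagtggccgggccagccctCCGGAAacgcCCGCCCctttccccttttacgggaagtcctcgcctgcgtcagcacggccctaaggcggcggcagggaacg
Bcl2l11, chr2:128125788-128126087, plus strand: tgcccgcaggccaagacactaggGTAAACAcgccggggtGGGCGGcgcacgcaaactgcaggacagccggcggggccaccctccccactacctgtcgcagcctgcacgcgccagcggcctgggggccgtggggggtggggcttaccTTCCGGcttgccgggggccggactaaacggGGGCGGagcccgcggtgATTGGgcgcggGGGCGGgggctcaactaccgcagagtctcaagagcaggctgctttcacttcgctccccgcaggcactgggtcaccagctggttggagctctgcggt
Cflar, chr1:58711241-58711540, plus strand: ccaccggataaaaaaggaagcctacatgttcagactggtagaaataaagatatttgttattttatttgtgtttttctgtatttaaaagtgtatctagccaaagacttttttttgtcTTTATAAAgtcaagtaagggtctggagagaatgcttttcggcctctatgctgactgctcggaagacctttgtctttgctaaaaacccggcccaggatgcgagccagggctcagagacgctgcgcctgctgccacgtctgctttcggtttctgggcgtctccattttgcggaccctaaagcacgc

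The Bcl2 window held 7 GC boxes and 44 CpG dinucleotides, at percentile 98.1 of all 32851 windows, but 10 of its 300 bases lay under a peak. The start of Bcl2 fell in the gap between a peak that ended at 106714250 and another that began at 106714602. The Mcl1, Bcl2l11 and Cflar windows lay fully under a peak. The Mcl1 window held 2 ETS cores and 1 GC box among 33 CpG. The Bcl2l11 window held 3 GC boxes, 1 CCAAT box, 1 ETS core and 1 FOXO motif among 27 CpG. The Cflar window had 12 CpG, no GC box, and a pair of overlapping TATA box matches on opposite strands in the run TTTATAAA. Over the 14 windows of the 9 genes the CpG number ranged from 1 to 44 with a median of 24.5, where the median of all windows was 7. All 14 windows touched a peak and 10 lay fully under one, against 36.5% and 28.1% of all windows. A GC box was found in 9 of the 14 windows (35.7% of all windows), an ETS core in 4 (14.9%), a CCAAT box in 3 (37.4%), a FOXO motif in 2 (3.65%), a TATA box in 1 (13.6%) and the STAT motif in 0 (8.3%). Windows of 1 gene can overlap, and a match is a run of letters, not a binding site.

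In both genotypes the loci of Mcl1, Bcl2l1 and Cflar carried more H3K27ac per kb of extended span than those of the effectors and of Bcl2l11. Bcl2, the other anti-apoptotic gene, lay above Bcl2l11 but not above the effectors, and the order differed per kb of peak. Per kb of extended span, Mcl1 was first with 13.6 to 23.4 CPM per kb over the 4 libraries. Bcl2l1 had 6.75 to 8.48 and Cflar 6.70 to 9.09 CPM per kb, and their ranges overlapped. Bid had 3.07 to 4.008, Bax 2.88 to 4.13, Bbc3 2.90 to 3.95 and Bak1 1.35 to 3.01 CPM per kb, each range overlapping the next. Bcl2 had 1.95 to 2.13 CPM per kb, within the range of Bak1, and Bcl2l11 was last with 0.924 to 1.12. Over all 15047 tested loci the median was 1.12 CPM per kb. By this density Mcl1 lay at the 99.9th percentile of all loci, Bcl2l1 at the 97.4th, Cflar at the 97.1st and Bcl2l11 at the 47.0th. Whole peaks were counted, also where they ran beyond the extended span, which raises this density. At Mcl1 the peaks covered 24.85 kb, against an extended span of 24.4 kb. Per kb of peak, the mean was 17.9 CPM at Mcl1, 14.4 at Cflar, 14.1 at Bax and 13.0 at Bcl2l1. It was 10.7 at Bak1, 10.1 at Bcl2l11 and 8.65 at Bcl2, so by that measure Bax lay above Bcl2l1.

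**Figure D1:**
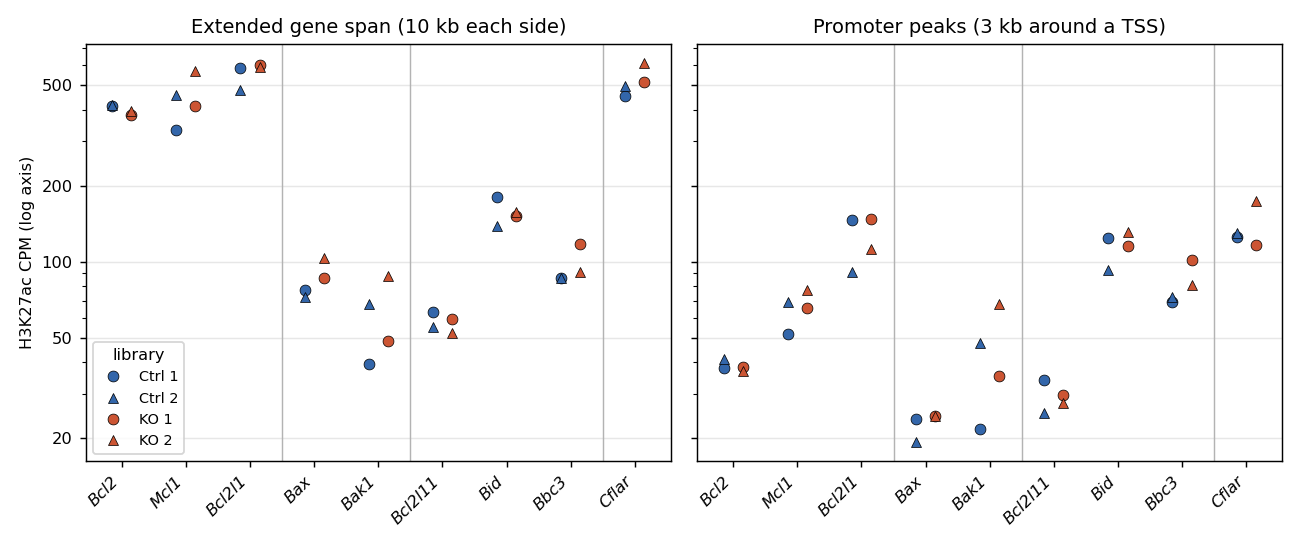
H3K27ac in CPM (log axis) at the whole locus (left) and in the promoter peaks (right) of each gene; circles are replicate 1 and triangles replicate 2, Ctrl in blue and KO in orange, and vertical lines part anti-apoptotic genes, effectors, BH3-only genes and Cflar. At Mcl1 and Bak1 both triangles lie above both circles at the locus, and at Bax, Bbc3 and Cflar both KO libraries lie above both Ctrl libraries.

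At the level of the locus, KO and Ctrl were compared with edgeR and p-values were adjusted over all 15047 loci. None of the 9 loci was called, and none had an unadjusted p under 0.05. Over all loci 0.0% were called and 2.54% had an unadjusted p under 0.05, and DESeq2 called 0 of the 9 loci and gave 0 of them an unadjusted p under 0.05. At 5 of the 9 loci the KO and Ctrl libraries stood apart without overlap, 4 of them higher and 1 lower in KO. Over all loci they stood apart at 29.3%, with 12.8% higher and 16.4% lower in KO. The log2 fold change was above 0 at 6 of the 9 loci, against 49.2% of all loci, and its median was 0.26 (-0.01 over all loci). Without KO replicate 2, the deepest library, the median of the 9 was 0.03 (-0.06 over all loci) and 5 were above 0. With a loess offset on abundance as the scaling, the median was 0.06 (0.01 over all loci) and 5 were above 0. The adjusted p of each of the 9 loci was 0.9996.

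Among the anti-apoptotic genes, Bcl2 was the 1 member whose KO libraries both lay below both Ctrl libraries. Bcl2 (ENSMUSG00000057329.7, chromosome 1, 106538178 to 106714274, minus strand) measured 415 and 418 CPM in Ctrl and 383 and 396 CPM in KO. The 4 values stayed close together, and the difference was small beside its error, with a log2 fold change of -0.10 (SE 0.20, 95% interval -0.54 to 0.34) that was -0.15 without KO replicate 2. Its locus held 61 peaks over 176.1 kb of gene, 55 of them gene body peaks with a median width, over all 61, of 570 bp. Promoter peaks, those within 3 kb of a TSS, held 9.15% and 9.83% of its counts in Ctrl and 10.03% and 9.31% in KO, the lowest promoter share of the 9 genes. The promoter peak with the most counts (106711945 to 106713177) had 14.5 and 14.0 CPM in Ctrl and 22.7 and 14.6 CPM in KO, a log2 fold change of 0.38 (SE 0.43). An intronic peak of 801 bp (106622805 to 106623605), 90.0 kb from the TSS, rested on 29 and 10 counts for Ctrl and on 6 and 8 for KO. In CPM these were 13.1 and 2.98 against 2.24 and 1.92, a log2 fold change of -1.91 (SE 0.78) with an unadjusted p of 0.0148 and an adjusted p of 0.998 in edgeR. Most of that difference lay between Ctrl replicate 1 and the other 3 libraries.

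Mcl1 encodes a short-lived anti-apoptotic protein that binds BIM and BAK. Mcl1 (ENSMUSG00000038612.16, chromosome 3, 95658788 to 95663176, plus strand) measured 333 and 459 CPM in Ctrl and 415 and 571 CPM in KO. The groups overlapped, since KO replicate 1 lay below Ctrl replicate 2, and in each genotype the more deeply sequenced library was the higher one. The log2 fold change was 0.32 (SE 0.24, 95% interval -0.23 to 0.87), and it ranged from 0.03 without KO replicate 2 to 0.58 without Ctrl replicate 2. Depth and replicate number divide the libraries in the same way, so the part of either in these values cannot be told apart. Although the gene spans 4.4 kb, most of the counts of the locus lay on its 3′ side. A peak of 7713 bp that began in an exon at its 3′ end (95662665 to 95670377) held 35.0% of the counts of the locus, and the next, of 7519 bp (95670744 to 95678262), held 40.3%. The latter also overlapped the 3′ end of Adamtsl4, a neighbour on the opposite strand, and with each peak given to 1 gene the Mcl1 value was 0.26. It had 126 and 183 CPM in Ctrl and 167 and 240 CPM in KO, a log2 fold change of 0.40 (SE 0.26), the lowest p of any Mcl1 peak (0.122 unadjusted, adjusted p 0.998 in edgeR). The promoter peak with the most counts (95657383 to 95658906) differed little, with 29.9 and 32.7 CPM in Ctrl and 30.6 and 34.0 CPM in KO (log2 fold change 0.04, SE 0.34).

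Bcl2l1 encodes BCL-XL. Bcl2l1 (ENSMUSG00000007659.18, chromosome 2, 152780668 to 152831728, minus strand) measured 587 and 480 CPM in Ctrl and 603 and 588 CPM in KO. The KO values were both above the Ctrl values, barely so for KO replicate 2 and Ctrl replicate 1, and the log2 fold change was 0.16 (SE 0.20, 95% interval -0.29 to 0.60). It was 0.02 without Ctrl replicate 2 and 0.30 without Ctrl replicate 1. A peak of 11596 bp inside an intron (152784289 to 152795884) held 34.5% of its counts, with 188 and 164 CPM in Ctrl and 198 and 227 CPM in KO. The promoter peak of 7688 bp (152824112 to 152831799) held 22.1%, with 147 and 91.4 CPM in Ctrl and 148 and 113 CPM in KO. At the promoter the libraries with number 1 were higher than those with number 2 in both genotypes, and the log2 fold change was 0.13 (SE 0.29). The lowest p among its peaks belonged to an intronic peak (152801820 to 152802281) with 2.26 and 2.08 CPM in Ctrl and 7.08 and 3.12 CPM in KO (log2 fold change 1.20, SE 0.92).

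**Figure D2:**
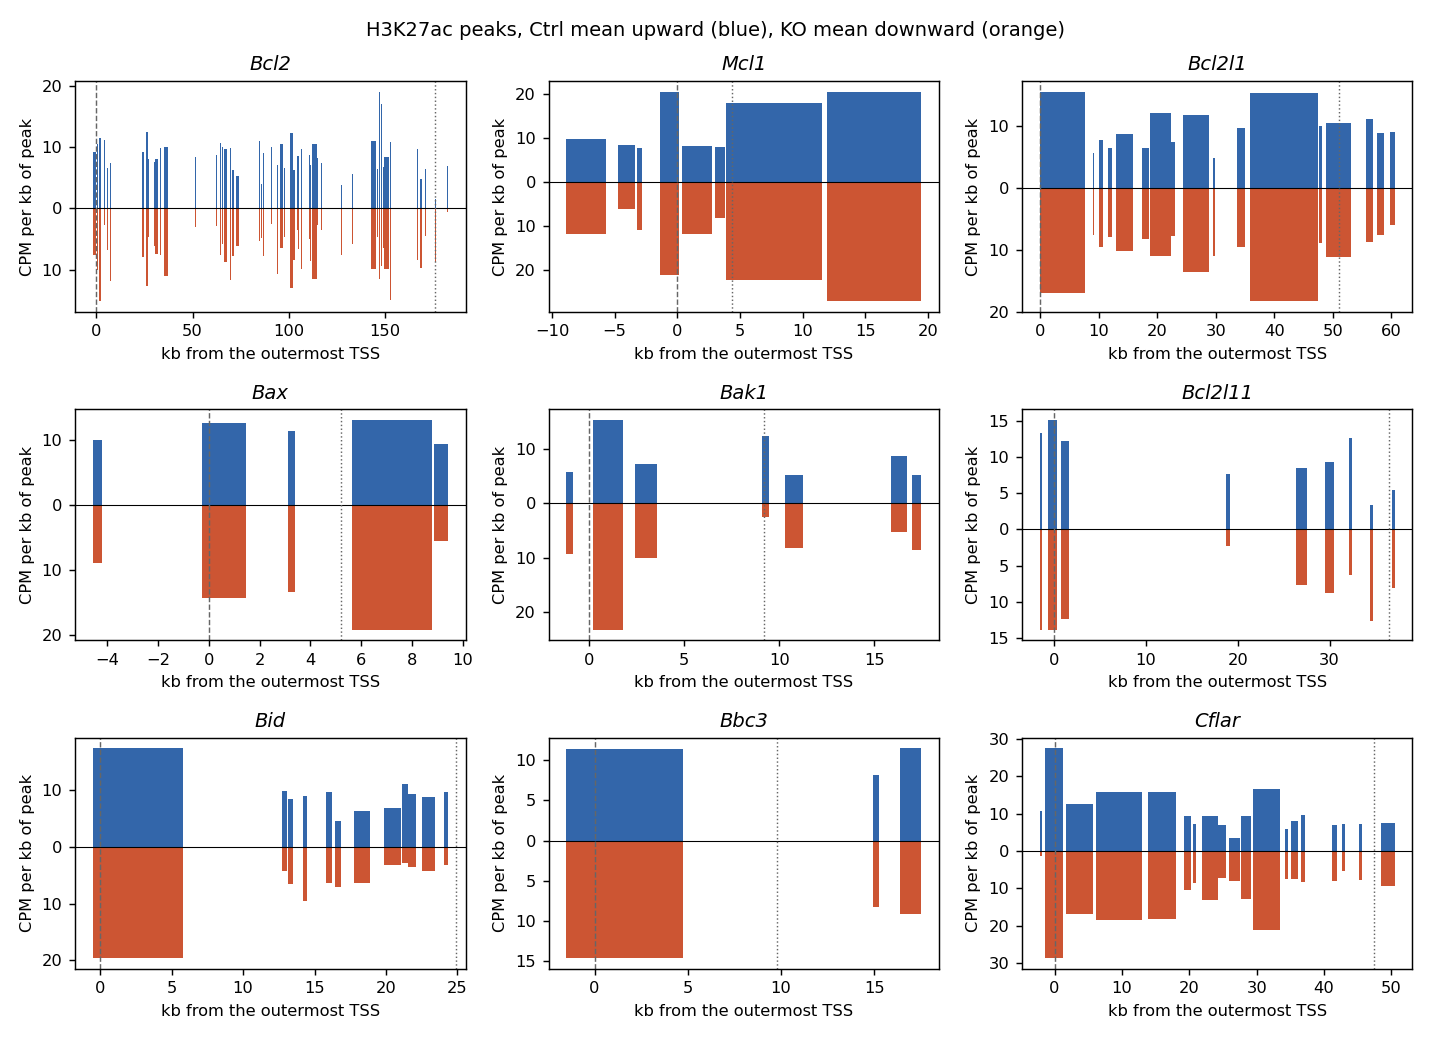
Peaks of each gene by distance from the outermost TSS in kb, drawn to width, with the mean CPM per kb of peak upward for Ctrl (blue) and downward for KO (orange); the dashed line is the TSS and the dotted line the end of the gene. Bcl2 has many narrow peaks along its body, Mcl1 has its 2 widest peaks at and beyond its 3′ end, and the Bid and Bbc3 promoters are single wide peaks.

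Bax and Bak1 encode the effectors that open the outer mitochondrial membrane, and at both loci the signal was shared with a neighbouring gene. Bax (ENSMUSG00000003873.11, chromosome 7, 45461697 to 45466898, minus strand) measured 77.4 and 72.6 CPM in Ctrl and 86.1 and 104 CPM in KO. Both KO libraries were above both Ctrl libraries, with a log2 fold change of 0.34 (SE 0.25, 95% interval -0.20 to 0.89) that was 0.17 without KO replicate 2. However, 60.1% of the counts of the locus lay in a peak of 3155 bp at the promoter of Ftl1 (45458094 to 45461248), a ferritin light chain gene. This peak had 38.0 and 44.9 CPM in Ctrl and 49.6 and 71.9 CPM in KO, a log2 fold change of 0.55 (SE 0.31) with an unadjusted p of 0.0730 and an adjusted p of 0.998 in edgeR. With each peak given to 1 gene the Bax value was 0.14. The promoter peak of Bax itself (45465442 to 45467147) had 23.98 and 19.3 CPM in Ctrl and 24.6 and 24.4 CPM in KO, a log2 fold change of 0.19 (SE 0.38).

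Bak1 (ENSMUSG00000057789.14, chromosome 17, 27019810 to 27029009, minus strand) varied most between libraries. Its locus had 39.4 and 67.9 CPM in Ctrl and 48.8 and 87.9 CPM in KO. As at Mcl1, the deeper library of each genotype was the higher one, the groups overlapped, and the log2 fold change of 0.35 (SE 0.36, 95% interval -0.46 to 1.16) turned to -0.18 without KO replicate 2. All 3 of its promoter peaks also lay within 3 kb of a TSS of Ggnbp1, which overlaps it on the opposite strand. The largest of them (27027233 to 27028823) had 17.2 and 31.6 CPM in Ctrl and 25.7 and 48.2 CPM in KO (log2 fold change 0.59, SE 0.34, unadjusted p 0.0849, adjusted p 0.998 in edgeR). A peak of 372 bp at the 3′ end of the gene (27019539 to 27019910) held only a few counts, 13 and 11 in Ctrl against 1 and 6 for KO, a log2 fold change of -2.19 (SE 1.25) from counts near the minimum that was tested. This peak was the 1 gene body peak of Bak1, and it too lay within 3 kb of a TSS of Ggnbp1.

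The 3 BH3-only genes had locus values on both sides of 0, and at Bid promoter and gene body values had opposite signs. Bid (ENSMUSG00000004446.12, chromosome 6, 120891930 to 120916853, minus strand), whose product is cleaved by caspase-8, measured 180 and 138 CPM in Ctrl and 151 and 157 CPM in KO, and the groups overlapped (log2 fold change -0.04, SE 0.24, 95% interval -0.58 to 0.49). Its promoter peak of 6283 bp (120911084 to 120917366) had 124 and 93.2 CPM in Ctrl and 116 and 131 CPM in KO, a log2 fold change of 0.19 (SE 0.25). Bcl2l13, a gene of the BCL2 family list on the opposite strand, ends inside Bid at 120892842. Bid gene body peaks within 10 kb of that end also counted for the Bcl2l13 locus, though no peak of the Bid locus lay nearer to a TSS of another gene. The 11 peaks in the Bid gene body together had 55.7 and 44.9 CPM in Ctrl and 35.8 and 25.9 CPM in KO. Here both KO libraries lay below both Ctrl libraries, with a log2 fold change of -0.71 (SE 0.39, 95% interval -1.49 to 0.07) and an unadjusted p of 0.0731, which was 0.614 after adjustment in edgeR. The lowest p among its peaks was at 120895805 to 120896978, with 5.43 and 10.7 CPM in Ctrl and 2.98 and 4.55 CPM in KO (log2 fold change -1.09, SE 0.66). The promoter share of the Bid locus was accordingly 69.1% and 67.5% in Ctrl and 76.4% and 83.5% in KO.

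Bcl2l11 encodes BIM, which binds the anti-apoptotic proteins and activates the effectors. Bcl2l11 (ENSMUSG00000027381.16, chromosome 2, 128126038 to 128162547, plus strand) measured 63.3 and 55.1 CPM in Ctrl and 59.2 and 52.2 CPM in KO. The groups overlapped, and the log2 fold change was -0.09 (SE 0.26, 95% interval -0.67 to 0.50). The promoter peak with the most counts (128125426 to 128126410) had 17.2 and 12.5 CPM in Ctrl and 14.5 and 12.7 CPM in KO (log2 fold change -0.12, SE 0.45). The lowest p of its tested peaks belonged to an exonic peak (128158104 to 128158482) with 4.52 and 5.06 CPM in Ctrl and 3.35 and 1.44 CPM in KO (log2 fold change -1.04, SE 0.92). Bbc3, which encodes PUMA, a target of p53, is at chromosome 7, 16308393 to 16318205, on the plus strand (ENSMUSG00000002083.13). It measured 86.4 and 86.6 CPM in Ctrl and 118 and 91.1 CPM in KO. Both KO libraries were above both Ctrl libraries, and the log2 fold change was 0.27 (SE 0.25, 95% interval -0.29 to 0.83). It was 0.06 without KO replicate 1 and 0.41 without KO replicate 2. A single promoter peak of 6247 bp (16308100 to 16314346) held 85.1% of the counts of the Bbc3 locus, with 69.2 and 72.6 CPM in Ctrl and 102 and 81.2 CPM in KO (log2 fold change 0.36, SE 0.29).

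Cflar measured more in both KO libraries than in both Ctrl libraries, but the interval of the difference included 0. Cflar (ENSMUSG00000026031.15, chromosome 1, 58711508 to 58758884, plus strand) measured 452 and 494 CPM in Ctrl and 516 and 612 CPM in KO. The log2 fold change was 0.26 (SE 0.20, 95% interval -0.19 to 0.70), and the gene body alone gave 0.28 (SE 0.22). Without KO replicate 2 the value of the locus was 0.10. Of its 19 peaks 17 were tested, and 14 of these had a log2 fold change above 0, against 49.2% of all tested peaks. Peaks of 1 locus share the same libraries and are not independent. The promoter peak with the most counts differed little (58710095 to 58712741), with 79.2 and 65.8 CPM in Ctrl and 61.9 and 89.9 CPM in KO (log2 fold change 0.07, SE 0.29). An intronic peak of 1729 bp (58737380 to 58739108), 24.9 kb from the nearest TSS, had 6.33 and 5.95 CPM in Ctrl and 13.4 and 13.9 CPM in KO. The replicates of each genotype lay close together there. The log2 fold change was 1.15 (SE 0.53) and had an unadjusted p of 0.0304 and an adjusted p of 0.998 in edgeR.

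**Figure D3:**
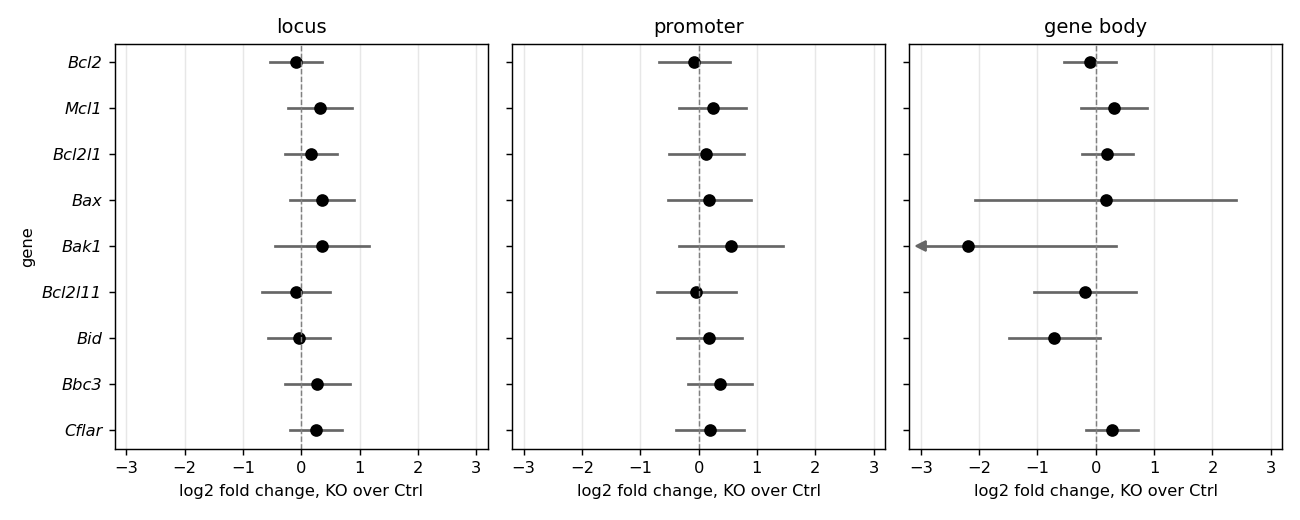
Log2 fold change of KO over Ctrl with its 95% interval from edgeR (lines) for each gene at the locus, in promoter peaks and in gene body peaks; an arrow marks an interval cut at the axis limit, and Bbc3 had no gene body peak. Every interval includes 0, and the Bak1 and Bid gene body values are the lowest, at -2.19 and -0.71. The Bak1 gene body value rests on a single peak of few counts.

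Promoter and gene body peaks were then compared separately. In the promoter comparison 0.0% of 11562 promoters were called and 1.29% had an unadjusted p under 0.05, and both counts were 0 among the 9 genes in edgeR and in DESeq2. The log2 fold change was above 0 at 7 of the 9 promoters, against 58.8% of all promoters, with a median of 0.19 (0.07 over all). KO and Ctrl stood apart at 2 of the 9 promoters, those of Bax and Bbc3, both higher in KO, where 26.7% of all promoters stood apart (17.8% higher and 8.93% lower in KO). In gene bodies 0.0% of 9247 were called and 8.77% had an unadjusted p under 0.05, and both counts were 0 for the 8 genes tested, again in edgeR and in DESeq2. KO and Ctrl stood apart at 5 of these 8 gene bodies, against 38.0% of all (10.2% higher and 27.8% lower in KO). Bcl2l1 and Cflar were the 2 that were higher in KO, and Bcl2, Bak1 and Bid the 3 that were lower, Bak1 by its single peak of few counts. The log2 fold change was above 0 at 4 of the 8, against 37.9% of all gene bodies, and the median was 0.03 for the 8 genes and -0.16 over all gene bodies.

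The share of a locus that lay in promoter peaks was higher in both KO libraries than in both Ctrl libraries at 3 of the 9 genes, Bak1, Bid and Bbc3. Over 11557 genes, 27.7% showed this pattern. At Bid the share was 68.3% ± 1.16 for Ctrl and 79.9% ± 5.06 for KO (mean ± SD, n = 2 libraries), a difference of 11.7 percentage points. At Bak1 it was 62.7% ± 10.6 and 74.8% ± 3.25, and at Bbc3 82.0% ± 2.65 and 87.8% ± 1.99. The exact permutation test gave p = 0.333 for each of the 3, the smallest two-sided p that 2 libraries against 2 allow, so no share could pass a threshold of 0.05. At the other 6 genes the libraries overlapped. The median difference over all these genes was 1.75 percentage points, and 10.9% of genes had a difference as large as that of Bid or larger.

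**Figure D4:**
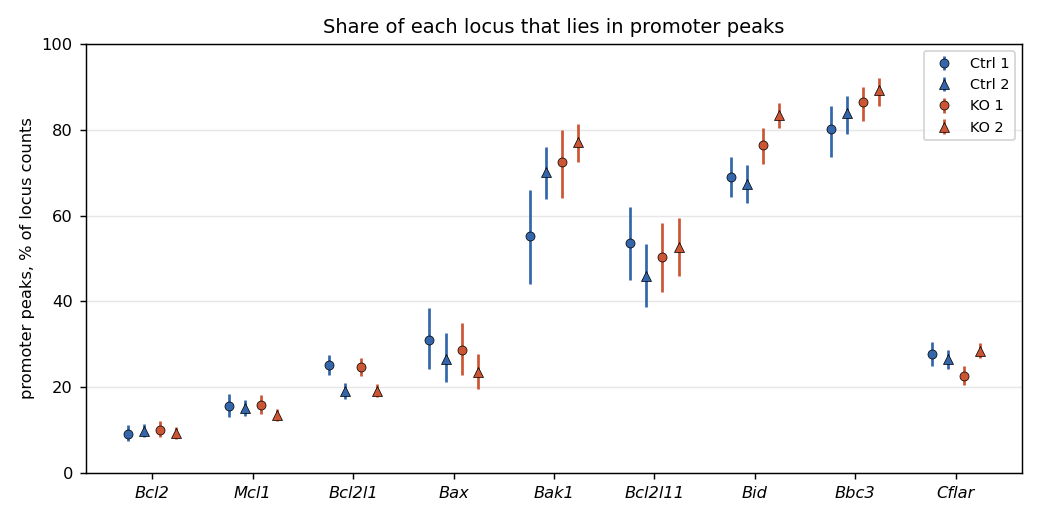
Share of the counts of each locus that lay in promoter peaks, in percent, per library, with exact 95% binomial intervals. The intervals cover counting error only and are too narrow if both mates of a pair were counted. Shares run from 9.15% at Bcl2 to 89.2% at Bbc3, and the KO libraries (orange) lie above both Ctrl libraries (blue) at Bak1, Bid and Bbc3.

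Peak by peak, 108 of the 141 peaks had enough counts to be tested, and 61 of them had a log2 fold change above 0 and 47 below. None was called by edgeR, where 0.00134% of all 74550 tested peaks were, nor by DESeq2, and the lowest adjusted p was 0.998. The Bcl2 and Cflar intronic peaks given above were the 2 with an unadjusted p under 0.05, which is 1.85% of the 108 against 4.24% of all tested peaks. KO and Ctrl stood apart at 29 of the 108 peaks (26.9%), against 33.3% of all. The median log2 fold change was 0.06 over these peaks and -0.01 over all.

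The stretch of 418.7 kb between Bcl2l11 and the next coding gene, Spdye4c, was described separately. It contains Gm14005, the long noncoding RNA also named Morrbid, which is known to restrain Bcl2l11 in short-lived myeloid cells. Of the 110 peaks in the stretch (chromosome 2, 128172548 to 128591208), 100 lay within Gm14005. Together they measured 1194 and 1031 CPM in Ctrl and 1303 and 1165 CPM in KO, and the groups overlapped. Of 85 tested peaks 53 had a log2 fold change above 0, where 49.2% of all tested peaks did. None of the 85 was called by edgeR or, over the whole table, by DESeq2. An unadjusted p under 0.05 was found for 4 of them (4.71%, against 4.24% of all tested peaks), 3 higher and 1 lower in KO. The first of these, 124.4 kb beyond Bcl2l11 (128286092 to 128287750), had 6.33 and 8.04 CPM in Ctrl and 16.8 and 17.5 CPM in KO (log2 fold change 1.24, SE 0.49). The lower one, at 128340813 to 128341754, had 11.3 and 9.23 CPM in Ctrl and 3.73 and 3.12 CPM in KO (log2 fold change -1.58, SE 0.64). The remaining pair began at 128365265 and 128371962, with log2 fold changes of 0.998 and 1.02.

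Other genes of the pathway were taken from lists of the BCL2 family, death receptors and their adaptors, the apoptosome with caspases and their inhibitors, and transcription factors that act on these genes. Of 47 genes 46 had a tested locus. None was called by edgeR or DESeq2, 27 had a log2 fold change above 0 and 19 below, and the median was 0.04. Over all loci 49.2% were above 0, and the median was -0.01. The 1 gene whose locus had an unadjusted p under 0.05 was Bok, a BAX-like family member, where 2.54% of all loci had such a p in edgeR. Bok had 22.2 and 21.7 CPM in Ctrl and 8.94 and 8.63 CPM in KO. The replicates of Bok lay close together in each genotype, and the log2 fold change was -1.32 (SE 0.47, unadjusted p 0.0184, adjusted p 0.9996 in edgeR). Within the family list, 8 of 16 genes lay on each side of 0, and the highest value was that of Bcl2l15, with a log2 fold change of 0.34 (SE 0.23), which was -0.11 when each peak was given to 1 gene. In the list of the apoptosome with caspases and their inhibitors, Cycs, the somatic cytochrome c gene, was highest at 0.28 (SE 0.25). Of the death receptor genes, Tnfrsf1a, which encodes TNF receptor 1, was highest at 0.34 (SE 0.23) and Ripk1, an adaptor kinase, lowest at -0.26 (SE 0.26). Of the transcription factors, the NF-κB subunit gene Rela was highest at 0.35 (SE 0.35) and Trp53, the p53 gene, lowest at -0.23 (SE 0.30). At promoters 40 of the 47 genes were tested, none was called by edgeR or DESeq2, 28 had a log2 fold change above 0 and 12 below, and the median was 0.11. Over all promoters 58.8% were above 0 with a median of 0.07, and 1.29% had an unadjusted p under 0.05 in edgeR. The 1 promoter with an unadjusted p under 0.05 was that of Bcl2a1b, an anti-apoptotic family member that was named after its values were seen and whose reads can be shared with near-identical gene copies. It had 56.6 and 47.3 CPM in Ctrl and 32.4 and 33.3 CPM in KO, a log2 fold change of -0.66 (SE 0.27, unadjusted p 0.0361, adjusted p 0.999 in edgeR).

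**Figure D5:**
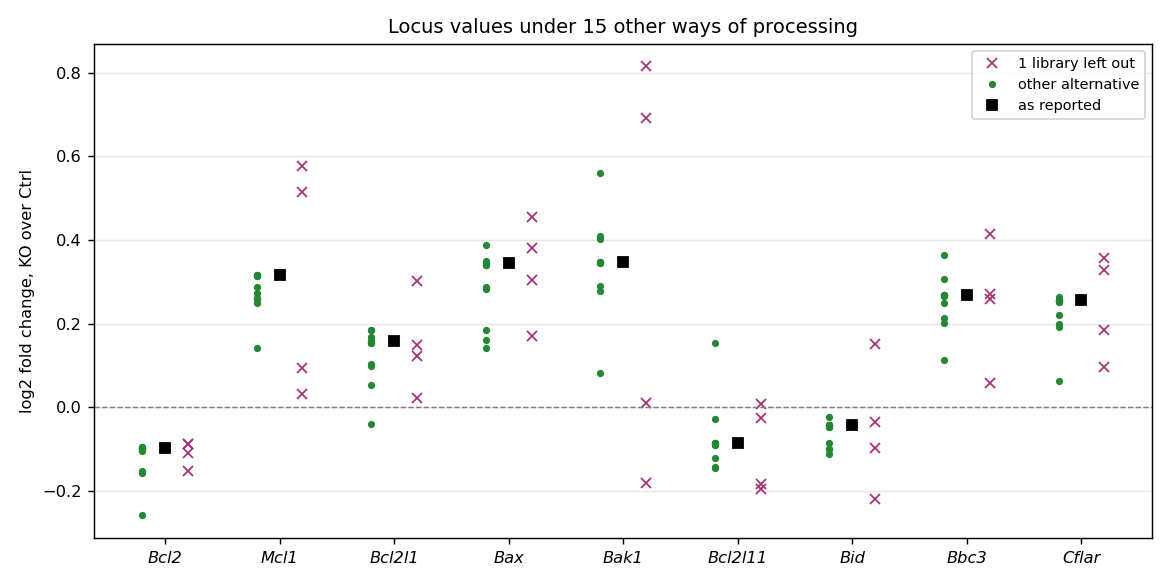
Log2 fold change of KO over Ctrl at each locus as reported (black squares), under each other way of processing (green dots) and with 1 library left out (purple crosses). Bcl2, Mcl1, Bax, Bbc3 and Cflar stay on the same side of 0 throughout, but with 1 library left out Mcl1 spans 0.03 to 0.58, Bax 0.17 to 0.46, Bbc3 0.06 to 0.41, Cflar 0.10 to 0.36 and Bak1 -0.18 to 0.82.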

How the data were processed

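The deposited table held raw read counts per merged peak in 4 libraries. The authors aligned reads to mm10 with Bowtie2, used MACS2 to call peaks over IgG and bedtools to join them into 1 set, so the peak set depends on the libraries compared; versions are not given in the sources used here. The IgG library was not analysed here. Even numbers made up 56.4% to 60.3% of the counts from 1 to 8, as when both mates of a pair are counted, so halved counts were tried as an alternative. Binomial intervals (exact, 95%) were taken from the counts without halving and cover counting error only. They are too narrow if both mates of a pair were counted.

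Gene spans were those of GENCODE M21 protein-coding genes. A peak overlapping a gene span with 10 kb on each side counted for its locus, a peak within 3 kb of a TSS for its promoter, and other peaks overlapping the span for its gene body; a peak in several spans counted for each. Features that reached 10 counts in 2 or more libraries entered a quasi-likelihood fit (edgeR 4.0.16, R 4.3.3), with TMM factors of the peak table and Benjamini-Hochberg adjustment over all features of a level. No covariate was used. SE was the size of the log2 fold change over the square root of F. For peaks the estimated prior degrees of freedom were infinite, so the spread came from the abundance trend. They were 7.59 for loci, 8.88 for promoters and 68 for gene bodies, so there the spread was partly shared over features. These values belong to the fits as reported and not to the alternatives. Nothing says that the libraries came from separate litters. The p-values thus rest on these 4 libraries, with a spread that is not that of the single feature alone. Promoter sequences were taken from RefSeq (GRCm38.p6) and matched by symbol for 9 of the 9 genes. DESeq2 1.42.0, other scalings, other count minimums, other extensions and promoter limits, the replicate number as a block and leaving out each library were the alternatives. The code was tested on simulated counts.

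The 9 genes, the pathway lists and the motifs were chosen with earlier results of these data known. Named items were the 9 genes, the strongest promoter peak and the lowest-p peak of each, every peak of theirs with an unadjusted p under 0.05, the stretch beyond Bcl2l11, and of the pathway lists the genes with an unadjusted p under 0.05 or else the highest and the lowest of each list. Where a symbol had 2 annotation entries (Ddit3), the one with more counts was used. A named gene of the pathway lists is not reported here.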

Additional observations from a re-analysis of the deposited data

How the results depend on the processing

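Of 689 values of named genes and peaks recomputed under the alternatives, 646 kept their direction and their side of the threshold, 37 reversed and 6 passed the threshold, all 6 with the replicate number as a block. Over the 15 alternatives the number of the 9 loci above 0 was 5 to 8. With DESeq2, with its size factors in edgeR or without a filter on counts, no named value changed direction.

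The labels give both genotypes replicates 1 and 2 and do not say whether the number pairs the libraries. Over tested peaks, log2 CPM correlated (Pearson) at 0.811 between Ctrl 1 and KO 1 and at 0.861 between Ctrl 2 and KO 2. Within a genotype it was 0.781 for Ctrl and 0.839 for KO. It was 0.809 between Ctrl 1 and KO 2 and 0.761 between Ctrl 2 and KO 1. Whether the libraries were paired was not tested. Deviations from the group means correlated at 0.264 between libraries of the same number, from 2 pairs. With the replicate block, 1257 loci were called, 2 of the 9 among them (Mcl1, 0.32, adjusted p 0.00581; Cflar, 0.25, adjusted p 0.0265; at least 0.998 for both under the other alternatives), and Bcl2l15 and Bok were also called. It called 1009 gene bodies, 1 of them of the 9 genes (Cflar), and 211 peaks, none of the 9 genes. All adjusted p-values are from edgeR. In the block fit of the loci, the p-values were those that a normal distribution gives for the log2 fold change and its SE. The spread behind these locus calls thus came from the abundance trend and not from the single locus.

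The count of called peaks, 1 as reported, was 0 with DESeq2, with halved counts and with at least 50 counts in 2 libraries, 2 with the loess offset, and 0 to 1 with 1 library left out. The loess offset on abundance reversed Bcl2l1 at the locus (-0.041) and promoter (-0.036), the Bcl2l11 gene body (0.10), the Cflar promoter (-0.022), and the strongest promoter peaks of Mcl1 (-0.065), Bcl2l1 (-0.083), Bid (-0.044) and Cflar (-0.118). That Mcl1 peak was -0.012 when library size was the total count and -0.019 with halved counts. Bcl2l11 was 0.15 with 50 kb on each side, the Bcl2 promoter 0.057 with a limit of 1 kb, and Bcl2l15 -0.11 with each peak given to 1 gene. Without the 10 kb the promoter share difference was 0.088 points at Bax and 0.0 at Bbc3, where all counts then lie in the promoter peak. The causes were not tested.

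With 1 library left out, direction changed for the loci of Bak1 (-0.18 to 0.82), Bcl2l11 (-0.196 to 0.008), Bid (-0.22 to 0.15), Rela (-0.12 to 0.88) and Trp53 (-0.57 to 0.09), and for the promoters of Bak1 (-0.027 to 1.27), Bcl2l1 (-0.17 to 0.51), Bcl2l11 (-0.24 to 0.17), Bid (-0.007 to 0.40) and Cflar (-0.16 to 0.43). It changed for the gene bodies of Bax (-0.28 to 0.61), Bcl2l11 (-0.44 to 0.003) and Mcl1 (-0.10 to 0.67), and for the strongest promoter peaks of Bcl2l1 (-0.17 to 0.51), Bcl2l11 (-0.34 to 0.11), Bid (-0.007 to 0.40), Cflar (-0.26 to 0.29) and Mcl1 (-0.07 to 0.12). The promoter share difference ranged over -0.18 to 0.54 points at Bcl2, -3.15 to 2.87 at Bcl2l1, -2.04 to 5.59 at Bcl2l11, -4.47 to 1.44 at Cflar and -1.76 to 0.59 at Mcl1. Peaks of few counts limit the precision, as do 2 libraries a group. At the 9 loci the lower limits of the 95% intervals ran from -0.67 (Bcl2l11) to -0.19 (Cflar). The upper limits ran from 0.34 (Bcl2) to 1.16 (Bak1), and differences within the interval of a locus are not excluded.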
